A study of Mus musculus with 6 samples.

Results

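The 289 barcodes described here carried RNA of astrocytes, out of 3360 retained barcodes and 21919 barcodes in all in 6 Drop-seq libraries of mouse spinal cord. Drop-seq captures single cells with barcoded beads in droplets and counts each captured RNA molecule once by its molecular identifier (UMI). Barcodes below 200 genes or above 20% mitochondrial UMIs were left out. A retained barcode was a member with 3 or more UMIs summed over 10 astrocyte genes (Slc7a10, Atp1b2, Cldn10, F3, Gja1, Gpr37l1, Gjb6, Ntsr2, Aqp4 and Slc1a2) and under 3 UMIs summed over 4 oligodendrocyte genes (Mag, Mog, Cldn11 and Ermn). The measured level of these genes therefore chose the members and is given below as a description only.

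The study had 3 groups of 2 libraries. WT-Veh cords came from wild-type mice given vehicle, SOD1-Veh cords from SOD1-G93A mice given vehicle, and SOD1-Nec cords from SOD1-G93A mice given Necrostatin-1s. SOD1-G93A mice carry a mutant human SOD1 transgene and are a model of amyotrophic lateral sclerosis, and Necrostatin-1s inhibits the kinase RIPK1. No group of wild-type mice given Necrostatin-1s was analysed here, so the effect of the compound can be read only in mutant cords. All 6 suspensions were made by Accutase digestion with removal of myelin and a density gradient for live cells, and the sources used here give neither age, sex, dose nor the number of mice per library. P-values measure the spread between the libraries of a group, which may be technical.

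Astrocytes are the glia that take up glutamate and potassium released by neurons, exchange water at vessel walls through end-feet, and form a network coupled by gap junctions. Slc1a2 encodes their main glutamate transporter, Aqp4 the water channel of the end-feet, Gja1 and Gjb6 their connexins, Atp1b2 a sodium pump subunit, Slc7a10 a D-serine transporter and Ntsr2 a neurotensin receptor. In injury and disease astrocytes can raise Gfap and Vim, which encode intermediate filaments, together with secreted and immune genes, a state called reactive.

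WT-Veh 1 and 2 held 57 and 62 members, SOD1-Veh 1 and 2 held 39 and 37, and SOD1-Nec 1 and 2 held 41 and 53. Their median depth was 604 UMIs, with library medians from 470 to 843, and their summed depth ran from 32567 UMIs in SOD1-Veh 1 to 98391 in WT-Veh 1. No member barcode was shared between libraries. A single barcode of SOD1-Nec 1 held 43509 UMIs, which was 54.5% of that library's summed member UMIs, and it carried 318 UMIs of 5 ependymal genes, 82.8% of all ependymal UMIs in members. SOD1-Veh 2 stood apart by muscle RNA, with 158 muscle UMIs per 10000 in its members against 0.921 or fewer in each other library. A single member held 816 of these UMIs, 90.8% of all muscle UMIs in members, and 4 members had 3 or more. WT-Veh 2 stood apart by neuronal RNA, with 41.7 UMIs of 10 neuronal genes per 10000 against 4.61 to 13.1 elsewhere. SOD1-Veh 1 had 2.76 UMIs of 6 neutrophil genes per 10000 in its members, where the other libraries had 57.3 to 552.

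Of the 10 genes of the rule, Slc1a2 gave the most UMIs. It gave 742 and was found in 88.2% of members, against 20.1% of the 715 barcodes with microglia markers, whose median depth of 623 UMIs was close to the members'. Atp1b2 followed with 323 UMIs and 46.7% of members (4.34% of microglia-marker barcodes), Aqp4 with 220 UMIs and 39.8% (4.48%), and Gja1 with 204 UMIs and 33.6% (1.68%). The rarest was F3, the tissue factor gene, with 83 UMIs in 15.6% of members (0.699%). Per 10000 UMIs, Slc1a2 stood at 19.1 in members, 2.72 in other retained barcodes and 9.10 in barcodes of under 100 genes, which were taken as a measure of RNA outside cells. Those shallow barcodes were thus richer in Slc1a2 than the other retained barcodes, and the same order held for Atp1b2 (8.32, 0.557 and 1.56) and Aqp4 (5.67, 0.485 and 1.38).

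Many members passed the rule by a small margin. There were 97 with exactly 3 UMIs of the 10 genes, 54 with 4, 82 with 5 to 9 and 56 with 10 or more, and 264 retained barcodes fell just short with 2. A single gene of the rule was detected in 45 members, and in 38 of them that gene was Slc1a2. To check the label against genes that the rule did not use, UMIs of 19 other astrocyte genes were counted, among them Aldoc, Sparcl1, Ndrg2, Mt3, Kcnj10 and Gfap. They made up 39.1 of 10000 UMIs in barcodes with none of the 10 genes, 58.9 in those with 2 UMIs, 57.4 in those with 3, 151 with 4, 142 with 5 to 9 and 319 with 10 or more. The pooled values at 2 and 3 were close, but the libraries differed. The level at 3 was above that at 2 in 4 libraries (97.3 against 42.3 for WT-Veh 2, 113 against 58.2 for SOD1-Veh 1, 60.7 against 44.2 for SOD1-Veh 2 and 103 against 68.7 for SOD1-Nec 1) and below it in WT-Veh 1 (34.4 against 55.1) and SOD1-Nec 2 (28.9 against 82.6). With each barcode thinned to 500 UMIs, the mean number of these UMIs was 2.95 for 2 marker UMIs, 3.68 for 3, 5.56 for 4, 10.5 for 5 to 9 and 24.5 for 10 or more, over 162, 68, 25, 43 and 39 barcodes deep enough.

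**Figure D1:**
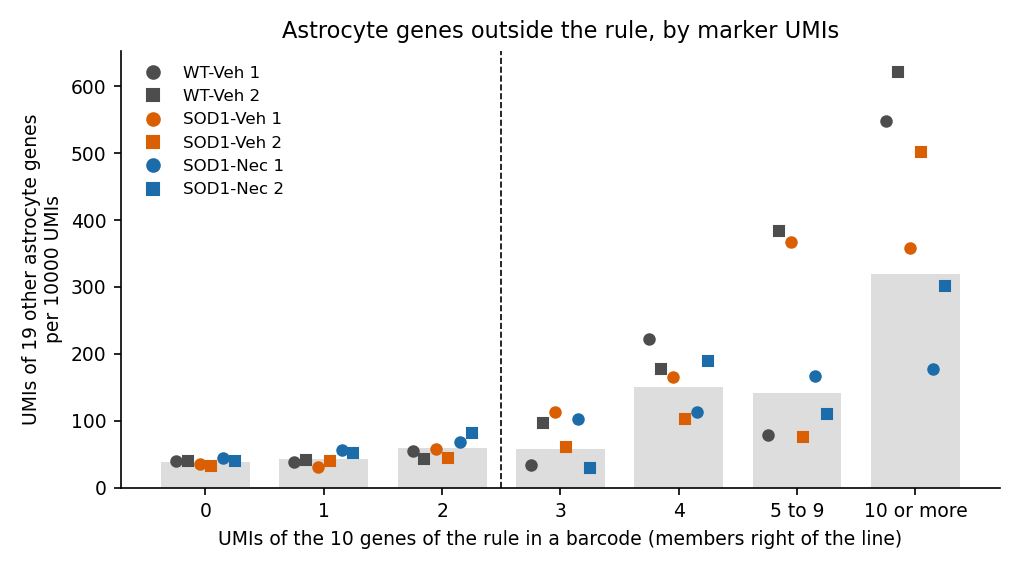
UMIs of 19 astrocyte genes outside the rule per 10000 UMIs (vertical axis) against the number of UMIs of the 10 genes of the rule in a barcode (horizontal axis); grey bars pool the 6 libraries and symbols are single libraries. The pooled level at 3 marker UMIs (57.4) is close to that at 2 (58.9), while 4 of the 6 libraries are higher at 3 and 2 are lower, and the highest level, 319, is at 10 or more.

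Among the astrocyte genes outside the rule, Sparcl1, a secreted protein that promotes synapse formation, gave 873 UMIs in 78.9% of members and 27% of microglia-marker barcodes, and Aldoc, a glycolytic aldolase of astrocytes, 681 UMIs in 68.9% and 27.3%. Genes rare in other cells separated more: Acsl3, a long-chain acyl-CoA synthetase, was found in 26% of members and 2.52% of microglia-marker barcodes, Slc4a4, a bicarbonate cotransporter, in 30.4% and 4.90%, and Htra1, a secreted protease, in 16.3% and 1.26%. Glul, which encodes glutamine synthetase, did not separate, with 43.9% of members and 47.4% of microglia-marker barcodes. Slc1a3, the other glial glutamate transporter, was sparse, with 44 UMIs in 8.65% of members and 7.55% of microglia-marker barcodes. Gfap was sparse as well, with 49 UMIs in 14.9% of members and 6.57% of microglia-marker barcodes, and stood at 1.26 per 10000 UMIs in members and 2.27 in barcodes of under 100 genes.

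Over all genes outside the rule, those with the largest ratio between members and other retained barcodes were Igfbp2, an insulin-like growth factor binding protein (32.8 times, 32 UMIs), the transcript Gm3764 (20.9 times, 73 UMIs), Arxes2 (15.98 times, 29 UMIs), the zinc transporter gene Slc39a12 (15.1 times, 57 UMIs) and the glutamine transporter gene Slc38a3 (14.0 times, 43 UMIs). Tril, a Toll-like receptor accessory gene, stood at 12.5 times with 63 UMIs and Ednrb, the endothelin B receptor gene, at 11.2 times with 114 UMIs. Sox9, a transcription factor of astrocytes and ependymal cells, reached 11.1 times, but 54.4% of its 68 UMIs came from 1 member. These ratios are descriptions, because the same cells were chosen by their RNA.

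The members also held RNA of other sources. Haemoglobin genes led the most abundant genes, with Hbb-bs at 24009 UMIs in 88.6% of members and a ratio to other retained barcodes of 0.997. Haemoglobin made up 9.77% to 20.03% of summed UMIs by library but a median of 0.652% per member, and 43 of 289 members had over 10%. Of the members, 37 carried 3 or more UMIs of 11 microglia genes, 55 of the neuronal genes, 28 of the neutrophil genes, 12 of 7 endothelial genes and 8 of the ependymal genes. Myelin genes reached 3 UMIs in 93.4% of members and in 86.2% of other retained barcodes. Leaving the red cell and myelin lists aside, 135 members (46.7%) had 3 or more UMIs of another class, which leaves 154 without. Scrublet, a doublet caller, marked 29 of the 3360 retained barcodes (0.863%), and these were kept in the main results.

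The mitochondrial limit removed most astrocyte-marker barcodes. With the rest of the rule met, 987 barcodes carried the astrocyte markers, and 698 of them (70.7%) exceeded 20% mitochondrial UMIs. The corresponding share was 6.41% of 764 barcodes with microglia markers, 6.06% of 198 with oligodendrocyte markers and 29.3% of all 4754 barcodes with at least 200 genes. By library the astrocyte-marker share over the limit was 68.7% and 73.3% for WT-Veh, 78.1% and 74.7% for SOD1-Veh, and 67.2% and 57.3% for SOD1-Nec. Every library therefore lost most of its astrocyte-marker barcodes to the limit, and the share over it was at most 12.6% for the microglia and oligodendrocyte markers in every library. The barcodes removed were richer in astrocyte RNA than those kept, with 478 UMIs of the 19 genes per 10000 UMIs that were not mitochondrial against 166, and their median depth was 564 UMIs. Most of them, 638 of 698, lay between 20% and 40%. A higher level of the 19 genes above the limit was not particular to the astrocyte-marker barcodes. On the same measure, microglia-marker barcodes held 200 over the limit against 48.2 up to it. Oligodendrocyte-marker barcodes held 332 against 91.6, and all barcodes with at least 200 genes 431 against 64.1.

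**Figure D2:**
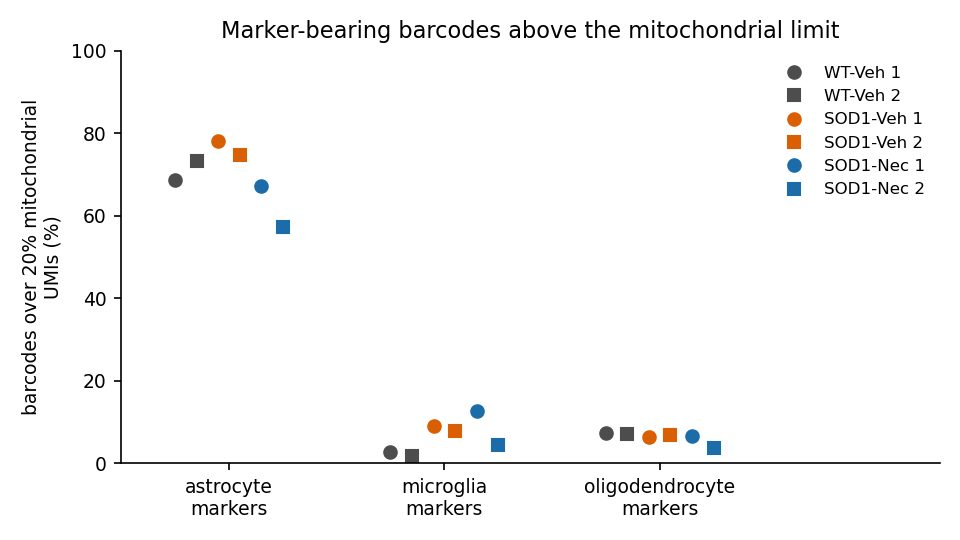
Share of marker-bearing barcodes with at least 200 genes that exceed 20% mitochondrial UMIs (vertical axis, percent) for 3 marker classes; each symbol is a library. Astrocyte-marker barcodes lie between 57.3% and 78.1% in the 6 libraries and the other classes at or below 12.6%.

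As a share of retained barcodes, members stood at 11.1% and 11.2% for WT-Veh, 9.77% and 8.47% for SOD1-Veh, and 6.20% and 6.68% for SOD1-Nec. The 3 groups did not overlap, with WT-Veh highest and SOD1-Nec lowest. SOD1-Veh (9.12% ± 0.925, SD, n = 2) differed from WT-Veh (11.1% ± 0.0872, SD, n = 2) by -2.01 points, with -1.29 points between the libraries numbered 1 and -2.72 between those numbered 2. SOD1-Nec (6.44% ± 0.334, SD, n = 2) differed by -2.68 points from SOD1-Veh and by -4.69 points from WT-Veh. Each of the 3 exact two-sided permutation tests gave p = 0.3333, the smallest that 2 libraries against 2 allow, so none can pass a threshold of 0.05, adjusted for the 3 or not.

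The order of the groups depended on which barcodes were counted. At up to 40% mitochondrial UMIs the shares were 23.6% and 28% for WT-Veh, 26% and 20.6% for SOD1-Veh, and 13.5% and 12.5% for SOD1-Nec, so that WT-Veh and SOD1-Veh overlapped and SOD1-Nec stayed lowest. A further choice kept only barcodes of at least 500 UMIs and thinned each to 500. It kept 347 and 329 barcodes for WT-Veh, 290 and 302 for SOD1-Veh, and 361 and 427 for SOD1-Nec. The shares were then 5.19% and 6.38%, 2.76% and 3.64%, and 2.77% and 4.92%, and SOD1-Veh and SOD1-Nec overlapped. At 400 or more genes the mean of SOD1-Nec was 0.845 points above that of SOD1-Veh. Among barcodes with markers of 5 cord classes, SOD1-Veh was 3.35 points above WT-Veh. In these shares and in the sums below, fewer astrocytes among the captured cells and less marker RNA per astrocyte cannot be told apart. In barcodes of under 100 genes, the 10 genes of the rule stood at 16.3 and 19.2 UMIs per 10000 for WT-Veh. They stood at 24.4 and 23.7 for SOD1-Veh and 9.72 and 5.83 for SOD1-Nec. In the same order the 19 other astrocyte genes stood at 98.3 and 105, 148 and 149, and 59.2 and 41.9. The 5 red cell genes there stood at 5521 and 5154, 3643 and 3011, and 6895 and 7790. The part of this RNA in the shares and sums was not tested.

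**Figure D3:**
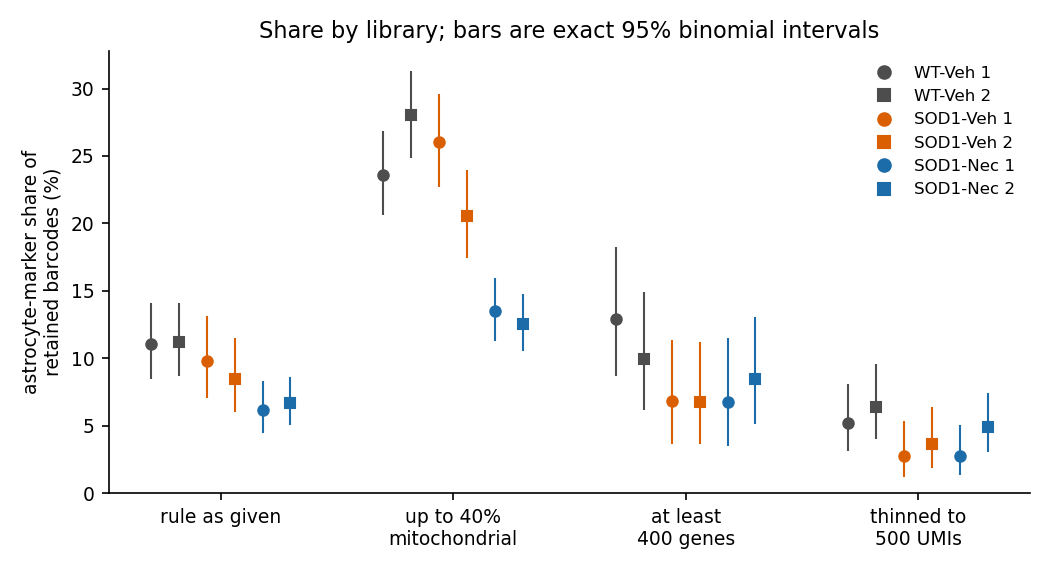
Share of retained barcodes that met the astrocyte rule (vertical axis, percent), by library, under the rule as given and 3 other choices of barcodes; bars are exact 95% binomial intervals (Clopper-Pearson) and cover counting error only. The 2 SOD1-Nec libraries are lowest at up to 40% mitochondrial UMIs (13.5% and 12.5%). They overlap SOD1-Veh once barcodes of at least 500 UMIs are thinned to 500 and shallower ones left out.

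For expression, the UMIs of a library's members were summed and the 6 sums compared with edgeR's quasi-likelihood test over 1177 genes with enough counts, Benjamini-Hochberg adjusted. Levels below are CPM, each library's counts scaled to a common total after adjustment by the trimmed mean of M-values (TMM), and an error after a log2 fold change is its standard error. No gene was called at an adjusted p under 0.05 in any of the 3 comparisons (0.0% of 1177 genes in each). At an unadjusted p under 0.05 there were 24 genes for SOD1-Veh against WT-Veh, 25 for SOD1-Nec against SOD1-Veh and 43 for SOD1-Nec against WT-Veh (2.04%, 2.12% and 3.65%). DESeq2 called 1, 0 and 1 gene, each time Sod1. No fold change below therefore passed this test, and the 3 comparisons share libraries. For reading counts of genes whose groups did not overlap, 10.3% of tested genes had both SOD1-Veh libraries above both WT-Veh libraries and 11.9% below, 13.7% and 12.1% for SOD1-Nec against SOD1-Veh, and 11.3% and 14.8% for SOD1-Nec against WT-Veh. In the same order, 54.5%, 47.2% and 48.3% of tested genes had a log2 fold change below 0.

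Sod1, the mouse counterpart of the human transgene, was read first as a check of the genotype labels. Whether reads of the human transgene were counted under the mouse symbol is not stated in the sources used here, so these values may mix RNA of both genes. The WT-Veh libraries held 300 and 466 CPM, those of SOD1-Veh 5057 and 9686, and those of SOD1-Nec 7268 and 8804, from 18, 16, 119, 356, 373 and 415 UMIs. All 4 SOD1-G93A libraries were above both WT-Veh libraries, and SOD1-Nec overlapped SOD1-Veh. The log2 fold change was 4.27 ± 0.74 for SOD1-Veh against WT-Veh (edgeR adjusted p = 0.141) and 4.39 ± 0.74 for SOD1-Nec against WT-Veh (edgeR adjusted p = 0.115). Without the ependymal-marker barcodes the same edgeR test gave adjusted p = 0.0176 and 0.0156, and with members over 1000 UMIs thinned to 1000 it gave 0.0135 and 0.0138. Over all alternatives the adjusted p ran from 4.33e-08 to 0.994 and from 2.87e-08 to 0.962. Leaving out SOD1-Nec 1 brought the edgeR adjusted p to 0.00852 and 0.0286, and leaving out SOD1-Nec 2 brought that of SOD1-Veh against WT-Veh to 0.0453. Barcodes of under 100 genes differed in the same direction, with 97.8 and 78.9 Sod1 CPM, not TMM-scaled, for WT-Veh and 3236 to 5924 for the 4 mutant libraries.

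In mutant cords given vehicle, Mt1, Mt2 and Gstm1 had lower levels than in wild type without passing the test. Mt2, a metallothionein that binds zinc and copper, stood at 2951 and 3465 CPM with wild-type genotype and 1232 and 898 in the SOD1-Veh libraries, a log2 fold change of -1.59 ± 0.71 (edgeR unadjusted p = 0.0455, adjusted p = 0.999). Mt1 stood at 5586 and 8880 CPM against 4632 and 3211, a log2 fold change of -0.88 ± 0.67. For Mt1 and Mt2 the SOD1-Veh libraries lay below the WT-Veh libraries, and Mt3, at 850 and 3232 CPM against 1572 and 980, overlapped. In other retained barcodes Mt2 stood at 471 and 424 CPM, not TMM-scaled, for WT-Veh and 210 and 150 for SOD1-Veh. Mt1 there stood at 1412 and 1157 against 832 and 1011. Mt2 was lower in microglia-marker barcodes as well (369 and 345 against 243 and 149) and overlapped in oligodendrocyte-marker barcodes. In barcodes of under 100 genes Mt1 was higher for SOD1-Veh (2433 and 2790 against 2022 and 1706), and Mt2 overlapped (590 and 678 against 676 and 748). Red cell genes there stood at 3643 and 3011 UMIs per 10000 for SOD1-Veh against 5521 and 5154 for WT-Veh. Their part in these 2 levels was not tested. Gstm1, a glutathione transferase, stood at 717 and 699 CPM against 212 and 190, a log2 fold change of -1.81 ± 0.66, which was -0.43 with barcodes of up to 40% mitochondrial UMIs included. In microglia-marker barcodes Gstm1 stood at 127 and 109 CPM, not TMM-scaled, against 34.8 and 37.3, from 12, 11, 4 and 3 UMIs. The astrocyte minus microglia difference in log2 fold change, from the class fit below, was -0.14 ± 1.28 for Gstm1 and -0.79 ± 0.72 for Mt2. Of the 22 listed metallothionein and antioxidant genes 16 were tested. Among these 11 were below 0, against 54.5% of all genes tested. Of the 16, 3 had libraries apart and lower and 2 apart and higher, against 11.9% and 10.3% of all genes. The median was -0.44 against -0.05 over all genes tested.

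Htra1, the secreted protease, stood at 750 and 611 CPM for wild type and 255 and 81.6 for SOD1-Veh, a log2 fold change of -2.08 ± 0.86. Hsph1, a co-chaperone of Hsp70, stood at 217 and 378 CPM against 42.5 and 27.2, from 1 UMI in each SOD1-Veh library, so that its log2 fold change of -3.02 ± 0.96 rests on few counts. Of the 20 listed astrocyte genes outside the rule, 18 were tested and 15 were below 0, with a median of -0.26. Htra1 and Bcan were the 2 with libraries apart and lower, where 11.9% of all tested genes were. The summed level of the 19 measured genes was 132 and 250 UMIs per 10000 for the WT-Veh members and 235 and 111 for the SOD1-Veh members, so the groups overlapped. The 12 tested genes of glutamate, potassium and water handling had a median of -0.29, 7 below 0 and 0 apart.

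Of 13 pan-reactive genes, 3 reached the count minimum: Gfap, Vim and Lcn2. Gfap stood at 133 and 233 CPM for WT-Veh, at 212 and 381 for SOD1-Veh and at 58.5 and 233 for SOD1-Nec, and all groups overlapped. Vim stood at 167 and 582 CPM for WT-Veh and 170 and 54.4 for SOD1-Veh, which overlapped. Lcn2, which neutrophils also express, gave 130 and 38 UMIs for wild type, 0 and 30 for SOD1-Veh and 9 and 21 for SOD1-Nec. The neutrophil genes given above differed between the same libraries, and their part in the Lcn2 level was not tested. Serpina3n gave 4 UMIs over all members, C4b 4 and the complement gene C3 8. Of the 10 listed necroptosis genes 0 reached the count minimum. Ripk1, the target of Necrostatin-1s, gave 8 UMIs in 8 members, Ripk3 1 UMI and Mlkl 0, where a count of 0 allows up to 3 UMIs. A difference in the necroptosis genes was not detectable at this depth.

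Disease-associated astrocyte genes had no common direction in mutant cords given vehicle, with 8 of 14 tested genes below 0 and a median of -0.08. The 20 genes of this list stood at 467 UMIs per 10000 in microglia-marker barcodes against 188 in members. The part of microglia RNA in the list's values was not tested. Apoe, the lipid carrier secreted by astrocytes, stood at 5236 and 5794 CPM for WT-Veh, at 7225 and 3972 for SOD1-Veh and at 1988 and 5494 for SOD1-Nec, and all groups overlapped. Of 29 tested nuclear genes of oxidative phosphorylation 22 were above 0, with a median of 0.26, and 7 had libraries apart and higher against 10.3% of all genes. In the other retained barcodes the 30 listed genes stood at 88.7 and 73.1 UMIs per 10000 for WT-Veh and 108 and 129 for SOD1-Veh. Neither their part nor that of the muscle RNA in SOD1-Veh 2 was tested. Of 16 tested immediate-early genes 11 were above 0, with a median of 0.41, and 5 were apart and higher against 10.3% of all genes. Klf2, an early-response transcription factor that endothelial cells also express, was among them with 484 and 408 CPM against 1232 and 1034, a log2 fold change of 1.33 ± 0.73. Summed over the 21 listed immediate-early genes, members overlapped, at 47.3 and 101 UMIs per 10000 for WT-Veh and 110 and 84.9 for SOD1-Veh. Microglia-marker barcodes held 711 and 595 against 562 and 585, and other retained barcodes 186 and 168 against 186 and 141. All 4 tested neuronal genes were below 0 with a median of -2.21. Meg3, which neurons transcribe as a non-coding RNA, stood at 834 and 3960 CPM against 255 and 381, a log2 fold change of -2.88 ± 0.97. In microglia-marker barcodes Meg3 stood at 348 and 661 CPM, not TMM-scaled, for WT-Veh and 17.4 and 87.1 for SOD1-Veh. The astrocyte minus microglia difference for Meg3, from the class fit below, was 0.76 ± 0.90 on the log2 scale. In other retained barcodes the 10 neuronal genes stood at 15.2 and 65.9 UMIs per 10000 for WT-Veh and at most 5.53 for SOD1-Veh. The part of this RNA in the members' values was not tested.

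Between SOD1-Nec and SOD1-Veh, all 16 tested immediate-early genes of 21 listed were below 0, where 47.2% of all tested genes were. Their median was -1.23 against 0.05 over all genes, and 11 of the 16 had libraries apart and lower against 12.1% of all genes. Junb stood at 935 and 1333 CPM for SOD1-Veh and 253 and 191 for SOD1-Nec, a log2 fold change of -2.34 ± 0.73 (edgeR unadjusted p = 0.00845, adjusted p = 0.998). Klf6 stood at 935 and 789 CPM against 234 and 233, a log2 fold change of -1.87 ± 0.65. Jun stood at 1615 and 1769 CPM against 468 and 785, a log2 fold change of -1.43 ± 0.72, which was -0.12 at 5 or more marker UMIs and -0.79 at up to 40% mitochondrial UMIs. All 3 encode transcription factors that cells induce quickly after a stimulus, tissue dissociation included. For Klf2 the SOD1-Nec libraries, at 468 and 106 CPM, also lay below both SOD1-Veh libraries (log2 fold change -1.96 ± 0.75).

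Depth and other cells' RNA differed along with this list. Summed over the 21 genes, members held 110 and 84.9 UMIs per 10000 for SOD1-Veh and 36.9 and 44.6 for SOD1-Nec. Without its deepest barcode SOD1-Nec 1 stood at 67.1, still below both SOD1-Veh libraries. The WT-Veh members held 47.3 and 101, on both sides of that value. Microglia-marker barcodes held 534 immediate-early UMIs per 10000 against 62.6 in members. The 11 microglia genes stood at 57.1 and 21.6 per 10000 for the SOD1-Veh members and 11.1 and 22.97 for the SOD1-Nec members, where the 11.1 was 24.5 without the deepest barcode, and none of the 11 was at 0. All 7 tested microglia genes were below 0, with a median of -0.99. In the other retained barcodes the immediate-early genes stood at 186 and 141 per 10000 for SOD1-Veh and 120 and 122 for SOD1-Nec. The part of these in the members' difference was not tested. With members over 1000 UMIs thinned to 1000, 13 of 13 tested immediate-early genes were below 0 with a median of -0.61. At 5 or more marker UMIs 4 of 7 were below 0 with a median of -0.09. At up to 40% mitochondrial UMIs 12 of 16 were below 0 with a median of -0.44.

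Of the 18 tested astrocyte genes outside the rule, 12 were below 0 between SOD1-Nec and SOD1-Veh, with a median of -0.62. Among the 18, 5 were apart and lower, against 12.1% of all genes. The summed level of the 19 measured genes, 235 and 111 UMIs per 10000 for SOD1-Veh and 155 and 115 for SOD1-Nec, overlapped between the groups. Acsl3 stood at 892 and 490 CPM for SOD1-Veh and 175 and 382 for SOD1-Nec, a log2 fold change of -1.29 ± 0.69. Glul stood at 1275 and 1333 CPM against 624 and 445, a log2 fold change of -1.28 ± 0.65. In microglia-marker barcodes Glul stood at 1104 and 1219 CPM, not TMM-scaled, for SOD1-Veh and 734 and 875 for SOD1-Nec. Oligodendrocyte-marker barcodes held 4445 and 6130 against 1857 and 2416, and barcodes of under 100 genes 680 and 751 against 200 and 159. The astrocyte minus microglia difference for Glul, from the class fit below, was -0.68 ± 0.66 on the log2 scale. Ttyh1, which encodes a chloride channel family protein of glia, stood at 1657 and 816 CPM against 585 and 509, a log2 fold change of -1.16 ± 0.70. In each of the 3 genes both SOD1-Nec libraries were below both SOD1-Veh libraries. Members with 5 or more marker UMIs numbered 13 of 41 and 23 of 53 for SOD1-Nec and 20 of 39 and 21 of 37 for SOD1-Veh, and the part of that difference in these genes was not tested. Within the 154 members without other classes, 12 of 13 tested genes of the list were below 0 with a median of -1.35, against 0.11 over the 241 genes tested there. At 5 or more marker UMIs 10 of 16 were below 0 with a median of -0.26.

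Hsph1 stood at 42.5 and 27.2 CPM for SOD1-Veh and 857 and 297 for SOD1-Nec, a log2 fold change of 3.995 ± 0.92 (edgeR unadjusted p = 0.00121, adjusted p = 0.998). Its SOD1-Nec libraries held 44 and 14 UMIs and its SOD1-Veh libraries 1 each. The value was 2.98 without SOD1-Nec 1, and 2.59 at up to 40% mitochondrial UMIs. The 15 heat shock and ubiquitin genes together stood at 116 UMIs per 10000 in SOD1-Nec 1 and at 47.5 without its deepest barcode. Both SOD1-Nec libraries were above both SOD1-Veh libraries for Mt2 as well, at 3897 and 1506 CPM, with a log2 fold change of 1.35 ± 0.70. That value was -0.24 among the members without other classes. In other retained barcodes Mt2 stood at 210 and 150 CPM, not TMM-scaled, for SOD1-Veh and 362 and 315 for SOD1-Nec. Microglia-marker barcodes held 243 and 149 against 384 and 309. The astrocyte minus microglia difference for Mt2 was 0.54 ± 0.72 on the log2 scale. Oligodendrocyte-marker barcodes overlapped, and barcodes of under 100 genes were lower for SOD1-Nec (258 and 218 against 590 and 678). Ldha, a lactate dehydrogenase subunit, stood at 340 and 653 CPM for SOD1-Veh and 77.9 and 255 for SOD1-Nec, a log2 fold change of -1.59 ± 0.72. Of the 8 tested glycolysis genes 7 were below 0, with a median of -1.13. SOD1-Veh 2 held the 158 muscle UMIs per 10000 given above, and their part in the glycolysis values was not tested.

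Clu and Vim changed sign between SOD1-Nec and SOD1-Veh without SOD1-Nec 1, the library of the deepest barcode. Clu, a secreted chaperone of astrocytes and ependymal cells, stood at 1870 and 517 CPM for SOD1-Veh and 4540 and 424 for SOD1-Nec, a log2 fold change of 1.07 ± 1.05. It was -1.25 without ependymal-marker barcodes and -1.52 without SOD1-Nec 1. Vim stood at 170 and 54.4 CPM against 2046 and 63.6, a log2 fold change of 3.29 ± 1.35, and was -0.75 without SOD1-Nec 1. In both genes the libraries of the groups overlapped.

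**Figure D4:**
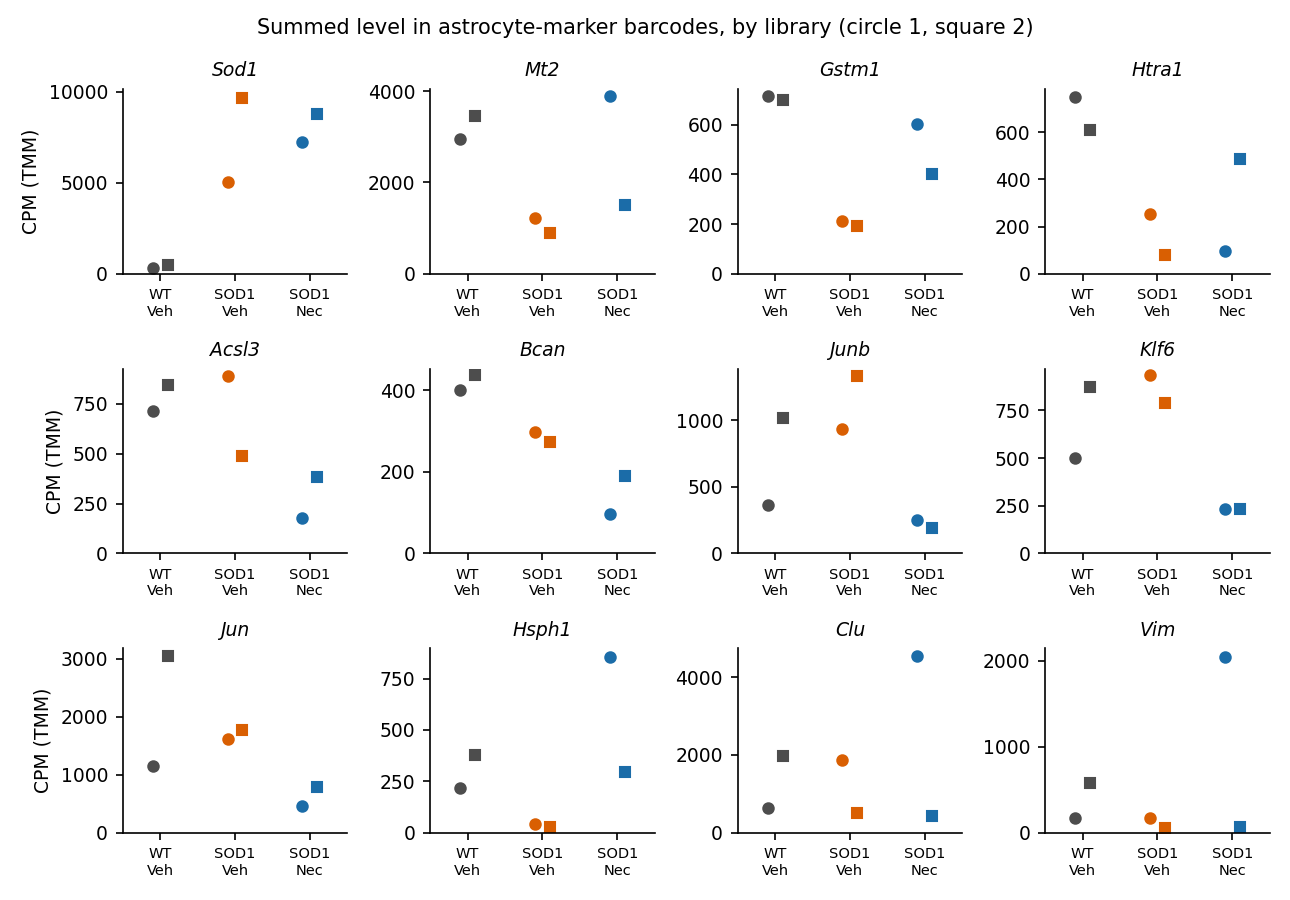
Level of 12 genes summed over astrocyte-marker barcodes (vertical axes, TMM-scaled CPM, linear from 0) in the 6 libraries, circles for libraries numbered 1 and squares for those numbered 2. Sod1 is at 300 and 466 in WT-Veh and at 5057 or more in each mutant library, Junb and Klf6 are lowest in SOD1-Nec, and the high Clu and Vim values belong to 1 library, SOD1-Nec 1.

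Between SOD1-Nec and WT-Veh, 14 of 18 tested astrocyte genes outside the rule were below 0, where 48.3% of all tested genes were. Their median was -0.82 against 0.03 over all genes, and 9 were apart and lower against 14.8% of all genes. The summed level of the 19 measured genes overlapped, at 132 and 250 UMIs per 10000 for WT-Veh and 155 and 115 for SOD1-Nec (143 and 115 without the deepest barcode). Bcan, which encodes the matrix proteoglycan brevican, stood at 400 and 437 CPM for WT-Veh and 97.4 and 191 for SOD1-Nec, a log2 fold change of -1.52 ± 0.63. Acsl3 stood at 717 and 844 CPM for WT-Veh, above both SOD1-Nec libraries, a log2 fold change of -1.48 ± 0.68. Acsbg1, a fatty acyl-CoA synthetase of glia, stood at 283 and 437 CPM against 117 and 84.9, a log2 fold change of -1.78 ± 0.70. Among the members without other classes all 13 tested genes of the list were below 0, with a median of -1.52. The wider set with up to 40% mitochondrial UMIs, 927 barcodes in all, had 16 of 19 tested genes below 0 and a median of -0.71. Members with 5 or more marker UMIs numbered 30 of 57 and 31 of 62 for WT-Veh and 13 of 41 and 23 of 53 for SOD1-Nec. The part of that difference in these genes was not tested.

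For the same comparison 14 of 16 tested immediate-early genes were below 0, with a median of -0.86, and 6 were apart and lower against 14.8% of all genes. In microglia-marker barcodes the listed genes stood at 711 and 595 UMIs per 10000 for WT-Veh and 428 and 383 for SOD1-Nec. Other retained barcodes held 186 and 168 against 120 and 122. The part of these in the members' difference was not tested. Jun stood at 1151 and 3057 CPM for WT-Veh, above both SOD1-Nec libraries, a log2 fold change of -1.74 ± 0.72. In microglia-marker barcodes Jun stood at 11219 and 10341 CPM, not TMM-scaled, for WT-Veh and 5558 and 4897 for SOD1-Nec. All 6 neutrophil genes were below 0 with a median of -2.23 and all were apart and lower, and all 4 tested neuronal genes were below 0 with a median of -1.70. Snhg11, a non-coding RNA of neurons, gave 29 and 39 UMIs in WT-Veh and 4 and 1 in SOD1-Nec, a log2 fold change of -3.91 ± 1.11 (edgeR unadjusted p = 0.00464, adjusted p = 0.999). In other retained barcodes the 10 neuronal genes stood at 15.2 and 65.9 UMIs per 10000 for WT-Veh and 11.8 and 6.14 for SOD1-Nec. The RNA of these other cells was part of the same sums, and its part in the astrocyte genes' values was not tested.

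**Figure D5:**
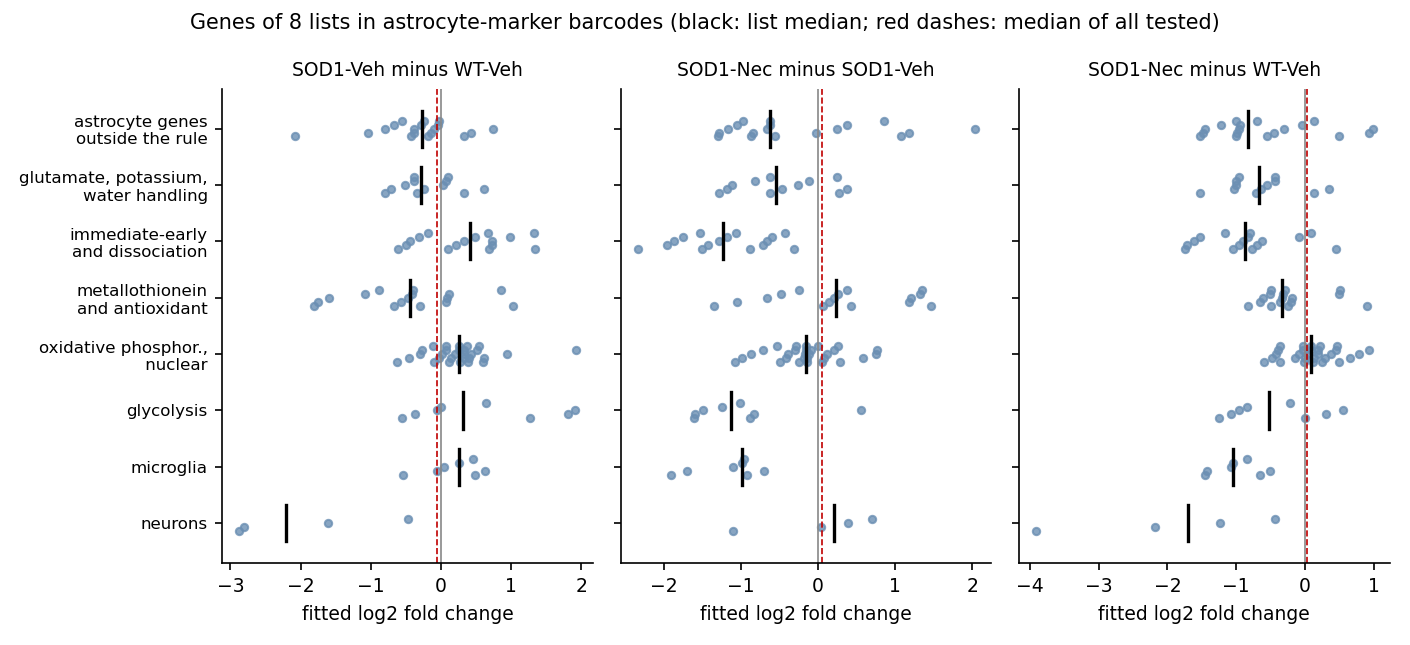
Fitted log2 fold changes (horizontal axes) of the tested genes of 8 lists in astrocyte-marker barcodes for the 3 comparisons; each point is a gene, black ticks are list medians and red dashes the median of all 1177 genes. The immediate-early points all lie below 0 for SOD1-Nec minus SOD1-Veh (median -1.23), and the astrocyte genes outside the rule have medians of -0.26, -0.62 and -0.82.

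Whether a difference between groups was unequal in astrocyte-marker and microglia-marker barcodes was tested in one fit of the marker classes over 2307 genes with library as a block. No gene was called for either contrast tested (0.0% of genes), with 62 genes at an unadjusted p under 0.05 for SOD1-Veh against WT-Veh (2.69%) and 94 for SOD1-Nec against SOD1-Veh (4.07%). Sod1 in microglia-marker barcodes stood at 137 and 118 CPM, not TMM-scaled, for WT-Veh and 1957 and 1767 for SOD1-Veh, and the astrocyte minus microglia difference was 0.33 ± 0.72 on the log2 scale. Junb in microglia-marker barcodes stood at 4307 and 4768 CPM for SOD1-Veh and 3069 and 2860 for SOD1-Nec, and the astrocyte minus microglia difference was -1.67 ± 0.74 (edgeR unadjusted p = 0.0295, adjusted p = 1). For the same contrast the difference was -2.41 ± 0.79 for Ttyh1 and 3.88 ± 1.41 for Hsph1 (edgeR adjusted p = 0.919 for both). Lgals3, a galectin of activated microglia, gave -5.88 ± 1.23 for SOD1-Veh against WT-Veh (edgeR adjusted p = 0.0693). It had 0 and 1 UMI in the SOD1-Veh members and 66 and 37 in the microglia-marker barcodes of the same libraries, against 19 and 4 in the WT-Veh members and 17 and 3 in their microglia-marker barcodes. Lyz2, a lysozyme gene of myeloid cells, was at -2.86 ± 0.73 (edgeR adjusted p = 0.387), and neutrophil genes in members stood at 552 and 260 UMIs per 10000 for WT-Veh and 2.76 and 301 for SOD1-Veh. Their part in these values was not tested. Lgals3 passed the edgeR test without SOD1-Nec 1 (adjusted p = 0.025) and without SOD1-Nec 2 (adjusted p = 0.0199).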

How the data were processed

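Per the labels' protocols, the libraries were made by Drop-seq, and the authors deposited 1 table of raw UMI counts per gene and barcode for each of the 6 libraries. The genome build named is mm9, per the submitters' processing notes. The aligner was not given in the sources used here, nor were the counting settings. Tables of libraries numbered 1 list 18169 genes and those of libraries numbered 2 list 18650; 17042 are in all, and fits used these. From the deposited counts, members were found by the rule, doublets were marked per library with Scrublet (scanpy 1.11.5) but kept, and UMIs were summed per library. Sums were tested in edgeR 4.0.16 (R 4.3.3) with TMM scaling, filterByExpr, all 6 libraries, and group as the only term. Shares were compared by exact permutation (scipy 1.17.1), and intervals are Clopper-Pearson at 95%. The pipeline was tested on simulated data. Some items are not reported here.

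The members and gene lists were chosen with earlier results of these data known. Of 360 listed symbols 350 were in the tables. Named genes are, for each comparison, up to 10 called genes in each direction, up to 3 tested genes of each list by smallest p, and a fixed set that includes Sod1, Gfap, Vim, Clu, Apoe, Glul, Mt1, Mt2 and Jun. Described without tests are the genes of the rule, the 15 most abundant and the 15 with the largest ratio to other retained barcodes (at least 20 UMIs, above 1 in all 6 libraries). The other genes given with a fold change or level (Lgals3 and those of the class comparison) were chosen after their values were seen. Replicate numbers came from the titles. Alternatives were DESeq2 1.42.0, other filters on genes and barcodes, a replicate block and each library left out.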

Additional observations from a re-analysis of the deposited data

How the results depend on the processing

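Main counts of called genes were 0. Without a filter on low counts there were 14, 12 and 3 for SOD1-Veh against WT-Veh, SOD1-Nec against SOD1-Veh and SOD1-Nec against WT-Veh, with muscle genes such as Acta1 and Ckm among the 14 and the 12. SOD1-Veh and SOD1-Nec against WT-Veh each had 1 call, Sod1, with up to 40% mitochondrial UMIs, without members of other classes, without ependymal-marker barcodes, with members thinned to 1000 UMIs and with DESeq2. Leaving out a library gave 0 to 2 calls for SOD1-Veh against WT-Veh (Sod1 and the muscle gene Pvalb without SOD1-Nec 1 or SOD1-Nec 2), 0 for SOD1-Nec against SOD1-Veh and 0 to 1 for SOD1-Nec against WT-Veh (Sod1 without SOD1-Nec 1); with a library left out, the lone library is assumed to vary like the others. The replicate block gave 0 calls in each comparison and 13, 16 and 25 genes at an unadjusted p under 0.05. Deviations of libraries with the same replicate number correlated at -0.41, -0.51 and 0.31, so the numbers were not taken as pairs.

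The class difference for SOD1-Veh against WT-Veh gave 1 gene without a filter, with at least 10 UMIs in 2 libraries, with up to 40% mitochondrial UMIs and with thinning to 1000 UMIs (Lyz2 in the last, Lgals3 in the others), and 0 to 4 with a library left out (4 neutrophil genes without SOD1-Veh 2). That for SOD1-Nec against SOD1-Veh gave 1 without members of other classes and 0 to 2 with a library left out (Ngp without SOD1-Veh 1, and 2 genes, Vim among them, without SOD1-Nec 2).

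Share differences in points, in the order of comparisons above, were -0.801, -2.48 and -3.28 at 5 marker UMIs, 0.0483, -0.0775 and -0.0292 without barcodes of any other class, 0.587, -3.13 and -2.54 with red cell and myelin lists aside, and -4.66, 0.845 and -3.82 at 400 genes. They were -2.51, -1.28 and -3.80 at 10% mitochondrial UMIs, -2.51, -10.3 and -12.8 at 40%, -2.58, 0.644 and -1.94 thinned to 500 UMIs, and 3.35, -6.40 and -3.05 among 5 cord classes. Leaving out a library gave -2.66 to -1.36, -3.34 to -2.03 and -4.93 to -4.45.

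Of 27 gene values in the text, 23 kept their sign in every alternative fitted, and 24 moved by more than 1.5-fold in at least 1. For SOD1-Nec against SOD1-Veh, Clu was -1.52 without SOD1-Nec 1 to 2.39 without SOD1-Veh 1 with libraries left out, -1.84 without members of other classes, -1.25 without ependymal-marker barcodes and -0.91 thinned to 1000 UMIs. Vim was -0.75 without SOD1-Nec 1 to 4.36 without SOD1-Veh 1, Mt2 was -0.24 without members of other classes, and Sod1 was -0.23 without SOD1-Veh 1 to 0.67 without SOD1-Veh 2, -0.02 without SOD1-Nec 2, -0.18 at 40% mitochondrial UMIs and -0.026 thinned to 1000 UMIs. The cause of these changes was not tested. The alternatives without other classes, without ependymal markers, with thinning to 1000 UMIs and at 10% haemoglobin were chosen after seeing the data. Expression without barcodes of any other class could not be fitted, because 3 libraries kept none. The common biological coefficient of variation was 0.523, and depth left 0 of 10 necroptosis genes and 3 of 13 pan-reactive genes to test.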
